A study of Mus musculus with 12 samples.

Results

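Chromatin accessibility was compared between regulatory T cells that had arisen from transferred cells (donor Treg) and the conventional T cells of their hosts (host Tconv), in 4 of the 12 ATAC-seq peak lists of the series, 2 libraries a group. Overlapping peaks, by 1 bp or more, were joined across the 4 libraries and gave 49461 merged regions. A region with a peak in both libraries of 1 group and in neither library of the other was called differing. By this rule 2096 regions were donor Treg only and 6329 were host Tconv only, 4.24% and 12.8% of all merged regions, while 25957 regions (52.5%) held a peak in each of the 4 and the remaining 15079 had a mixed pattern.

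In this mouse experiment, T cells with the 6.5TCR, a transgenic CD4 receptor specific for the antigen HA, were transferred into Aire-HA hosts, and bone marrow was taken 14 days later for sorting. The donor Treg libraries were made from donor cells described as converted to regulatory T cells and sorted as CD3+CD4+ cells positive for CD25, LAP and CD45.2 and negative for CD45.1. The host Tconv libraries were made from host cells that the labels call wild type, carry the name Aire-HCO, and were sorted as CD3+CD4+ cells positive for CD45.1 and negative for CD45.2 and CD25. All mice were Balb/c, and both groups carry the run code BW13. CD45.1 and CD45.2 are forms of the Ptprc product that mark host and donor. The other 8 libraries, 2 each, are donor cells that were not converted (donor Tconv, CD25-), host cells sorted as CD25+CTLA4+Nrp1- (host pTreg) or CD25+CTLA4+Nrp1+ (host tTreg), and regulatory T cells induced in culture (iTreg). Cell origin, the transgenic receptor, transfer, the CD45 form and the sort all differ between donor Treg and host Tconv and cannot be told apart, and the labels do not say whether 2 libraries of a group came from separate animals or pools. The spread between libraries may therefore be technical.

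ATAC-seq cuts DNA with a transposase where chromatin is open, so that a peak marks a stretch with many cuts. Regulatory T cells are CD4 T cells that restrain immune responses. Their identity depends on the transcription factor Foxp3, on interleukin-2 received through the high-affinity receptor chain CD25 (Il2ra), and on regulatory elements at genes such as Ctla4, Ikzf2 and Lrrc32. Lrrc32 encodes GARP, which holds the latent form of TGF-beta (LAP) on the cell surface. Resting conventional T cells instead use Lef1, Tcf7, Satb1, Bach2 and Foxp1 to keep a naive state. CD25 and LAP defined the sort, so the values at Il2ra, Tgfb1 and Lrrc32 describe the sort as well as the cells.

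The genes whose start itself lay in a differing or width-changed region are best seen as sequence. Below are the promoter windows of RefSeq (GRCm38.p6, which shares coordinates with the mm10 build of the files), from 250 bases before to 50 after the start, 5′ to 3′ on the gene's strand. The first 3 lay in donor Treg only regions: Izumo1r (chr9:14903718-14904017, minus strand), which encodes folate receptor 4, Ebi3 (chr17:55952373-55952672, plus strand), which encodes a subunit of IL-35 and IL-27, and an inner start of Foxp1 (chr6:99028249-99028548, minus strand). The next 3 lay in shared regions with wider peaks in donor Treg: Ctla4 (chr1:60908775-60909074, plus strand), an inhibitory receptor, Tigit (chr16:43664135-43664434, minus strand), another inhibitory receptor, and Itgb8 (chr12:119238227-119238526, minus strand), an integrin chain that activates latent TGF-beta. The last is another start of Foxp1 (chr6:99266466-99266765, minus strand), which lay in a host Tconv only region. Capitals mark matches to any of 7 motifs on either strand, and overlapping matches form 1 run.
Izumo1r: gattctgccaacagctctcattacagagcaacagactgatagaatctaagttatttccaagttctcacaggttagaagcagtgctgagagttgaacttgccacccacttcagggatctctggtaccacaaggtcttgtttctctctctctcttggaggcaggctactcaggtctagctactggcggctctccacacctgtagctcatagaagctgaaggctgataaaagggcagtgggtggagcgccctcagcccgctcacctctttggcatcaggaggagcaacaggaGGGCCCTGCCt
Ebi3: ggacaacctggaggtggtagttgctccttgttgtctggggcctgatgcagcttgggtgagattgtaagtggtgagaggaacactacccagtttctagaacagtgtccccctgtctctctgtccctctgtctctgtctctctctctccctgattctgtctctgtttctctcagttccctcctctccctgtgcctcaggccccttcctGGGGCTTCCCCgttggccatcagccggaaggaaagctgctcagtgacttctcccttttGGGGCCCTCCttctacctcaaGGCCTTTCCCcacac
Foxp1 inner start: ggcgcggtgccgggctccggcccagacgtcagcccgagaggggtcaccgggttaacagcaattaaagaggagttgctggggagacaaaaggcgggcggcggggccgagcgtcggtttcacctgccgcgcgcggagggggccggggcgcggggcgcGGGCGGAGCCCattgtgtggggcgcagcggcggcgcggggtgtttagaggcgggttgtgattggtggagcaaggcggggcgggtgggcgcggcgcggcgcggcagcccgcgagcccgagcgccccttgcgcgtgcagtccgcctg
Ctla4: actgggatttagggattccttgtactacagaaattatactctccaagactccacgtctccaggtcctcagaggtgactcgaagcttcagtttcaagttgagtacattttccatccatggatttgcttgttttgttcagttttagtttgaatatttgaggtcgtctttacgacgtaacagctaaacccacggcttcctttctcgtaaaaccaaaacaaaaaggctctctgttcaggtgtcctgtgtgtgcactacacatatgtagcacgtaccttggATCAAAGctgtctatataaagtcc
Tigit: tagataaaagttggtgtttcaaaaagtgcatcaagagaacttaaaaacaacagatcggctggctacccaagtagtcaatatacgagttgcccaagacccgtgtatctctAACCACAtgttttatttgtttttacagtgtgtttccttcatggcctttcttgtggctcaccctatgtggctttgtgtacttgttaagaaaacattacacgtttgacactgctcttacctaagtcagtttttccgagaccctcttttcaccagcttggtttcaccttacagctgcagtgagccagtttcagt
Itgb8: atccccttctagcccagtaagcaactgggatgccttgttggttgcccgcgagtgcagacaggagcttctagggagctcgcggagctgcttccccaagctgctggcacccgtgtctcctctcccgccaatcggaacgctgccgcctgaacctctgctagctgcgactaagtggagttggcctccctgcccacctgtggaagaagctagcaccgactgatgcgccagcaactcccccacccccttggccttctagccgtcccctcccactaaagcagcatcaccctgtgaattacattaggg
Foxp1 other start: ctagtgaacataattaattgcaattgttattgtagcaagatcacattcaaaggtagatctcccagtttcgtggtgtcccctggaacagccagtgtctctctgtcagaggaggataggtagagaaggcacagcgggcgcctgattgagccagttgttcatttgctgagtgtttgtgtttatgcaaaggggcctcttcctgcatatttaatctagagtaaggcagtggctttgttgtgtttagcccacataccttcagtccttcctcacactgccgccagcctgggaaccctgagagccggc

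The motifs were TGTTTAC (forkhead), TGTGGTT (RUNX), TGANTCA (AP-1), TTCNNNGAA (STAT), ACAGGAA (ETS), CTTTGAT (TCF/LEF) and an NF-kB motif of GGG, any 5 bases and CC. A match describes the letters and is not a binding site, and motifs can overlap one another. Izumo1r, Ebi3 and the inner Foxp1 start held the NF-kB letters, which 57.1% of all 21262 promoter windows also held. The Ctla4 window held the TCF/LEF letters just after the gene's start, toward the end of the window, as did 3.22% of all windows, and the Tigit window held the RUNX letters, as did 4.71%. Itgb8 and the other Foxp1 start held none of the 7. Promoters were a small part of the difference: 80 windows of 73 genes lay in donor Treg only regions and 143 windows of 134 genes in host Tconv only regions, against 10171 in regions shared by all 4 libraries. The forkhead letters were in 1.25% of the donor Treg only windows and in 1.4% of the host Tconv only windows, and in 3.01% of all windows. The AP-1 letters were in 11.2% and 10.5% of them, and in 6.99% of all. They were in 10.0% of windows without a peak in the 4 libraries and in 3.84% of windows in regions shared by all 4. The forkhead counts were 1 and 2 windows, and the AP-1 counts 9 and 15. Median GC content was 60.2% in donor Treg only windows, 58.7% in host Tconv only windows and 56.3% in all.

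The 4 lists were of unequal length, with 32234 and 34467 peaks in donor Treg and 37050 and 44465 peaks in host Tconv. Host Tconv replicate 2 stood apart, with 6710 regions found in none of the other 3 libraries compared, against 557, 1348 and 805 for donor Treg replicates 1 and 2 and host Tconv replicate 1. It also covered 32.95 Mb, against 21.73, 23.18 and 23.43 Mb in those 3 libraries. The number in the library name, which the labels do not explain, was 17000 or slightly less in donor Treg and 50000 in both host Tconv libraries. With the 28394 widest peaks of each library, 36072 merged regions held 3027 donor Treg only regions (8.39%) and 3142 host Tconv only regions (8.71%). The excess of host Tconv only regions seen with all peaks was thus not seen with lists of equal length. The narrowest peak kept was 212 and 240 bp in donor Treg and 270 and 387 bp in host Tconv. A donor Treg only region in these lists, also at the genes below, can therefore hold a narrower host Tconv peak that was left out. Keeping only peaks of at least 300 bp of these lists, which made their lengths unequal again, gave 1900 donor Treg only and 3597 host Tconv only regions. Single libraries moved these counts: with all peaks, the number of donor Treg only regions was 3471 when donor Treg replicate 1 was left out and 3709 when host Tconv replicate 2 was. That of host Tconv only regions was 13052 when host Tconv replicate 1 was left out. With lists of equal length, 4874 were host Tconv only without host Tconv replicate 1. Of the regions differing with all peaks, 1279 donor Treg only regions (61.0%) and 2372 host Tconv only regions (37.5%) kept their class. The Jaccard index over merged regions was 0.836 within donor Treg, 0.769 within host Tconv and between 0.608 and 0.671 across the groups. An exact permutation test of 2 libraries against 2 cannot go below p = 0.333, so no p is given for presence or absence. Every one of 18 pan-T and CD4 genes had a peak in each of the 4 libraries. Of 10 B cell genes, 5 and 5 had a peak in donor Treg and 4 and 5 in host Tconv; Pax5 and Ebf1 were among those with a peak, and Ms4a1, Cd79a, Cd79b and Fcer2a had none in any of the 4. Of 12 myeloid genes, 6 and 7 had a peak in donor Treg and 6 and 7 in host Tconv; Spi1 and Itgam were among those with a peak, and Lyz2, Csf1r, Elane, S100a8 and Csf3r had none. A missing peak does not show that a gene was closed.

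Among 20 genes typical of regulatory T cells, 40 of 177 regions (22.6%) were donor Treg only and 9 (5.08%) were host Tconv only, where regions at all genes gave 3.94% and 12.6%. The count of donor Treg only regions was the larger at 13 of the 20 genes, the smaller at 4 and equal at 3. Among 18 genes of effector and tissue regulatory T cells the counts were 29 (20%) and 8 (5.52%) of 145 regions. With lists of equal length they were 53 (34.4%) and 6 (3.9%) of 154 regions for the regulatory genes and 38 (30.6%) and 4 (3.23%) of 124 for the effector genes. These counts have no test. The net count (donor Treg only minus host Tconv only) of the regulatory genes was 31. It was 21 without the genes tied to any sort of the series, which here were Il2ra, Lrrc32, Ctla4 and Nrp1. When each region was instead assigned by gene ends alone, up to 10 kb away, it was 12 for the regulatory and 6 for the effector genes, whose net count was 21. The effector net count was 32 with donor Treg replicate 1 left out, and also with host Tconv replicate 2 left out. Both values rest on the looser rule described above.

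**Figure D1:**
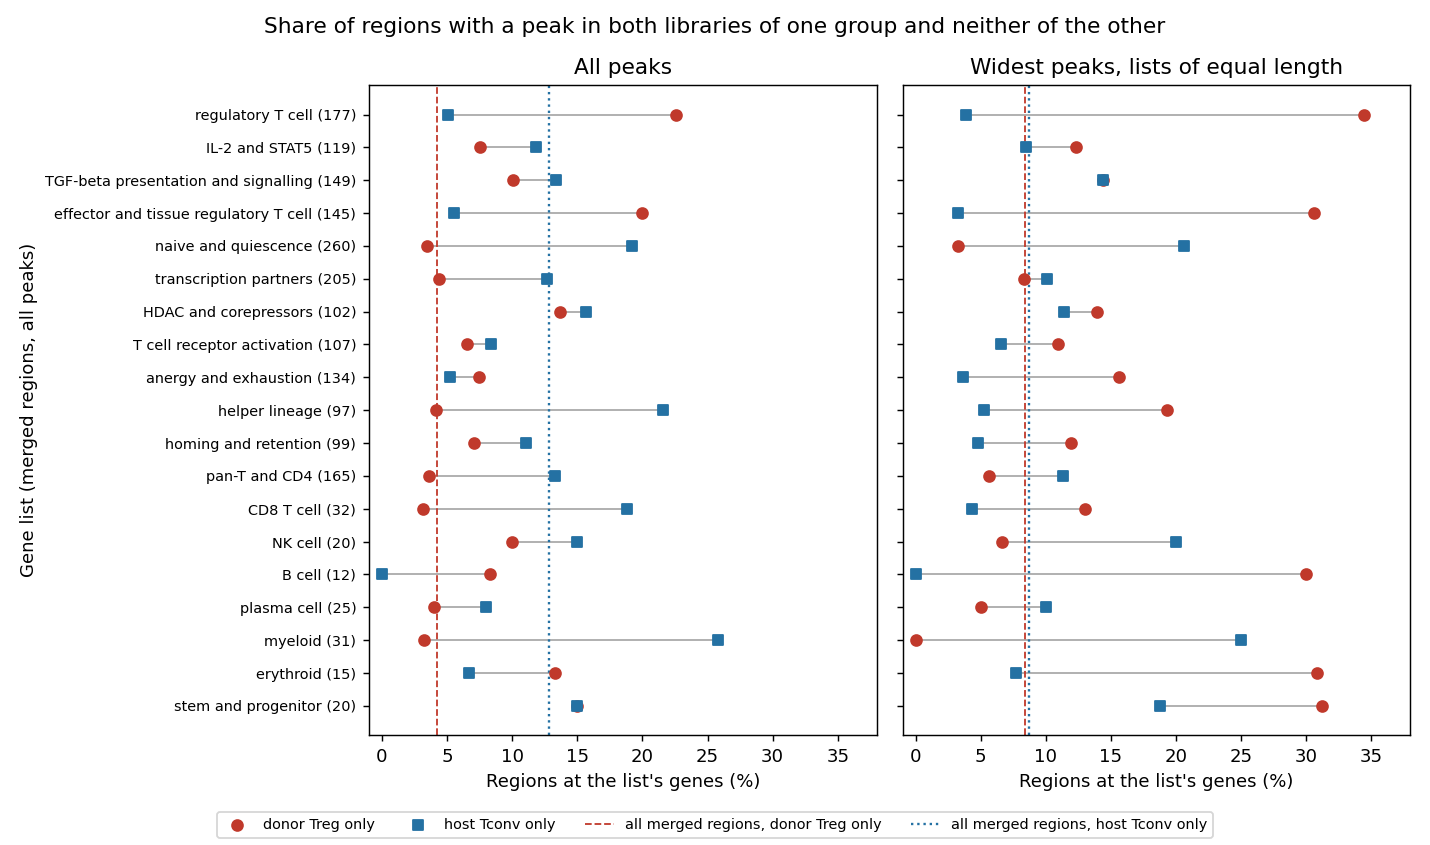
Share of merged regions (x axis, %) at the genes of each list (y axis, number of merged regions in brackets) that were donor Treg only (circles) or host Tconv only (squares), with all peaks and with the widest peaks of each library; lines mark the shares over all merged regions. The regulatory T cell and the effector and tissue lists had more donor Treg only regions in both panels (22.6% and 20% with all peaks), and the naive list more host Tconv only regions (19.2%).

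Foxp3, the lineage factor, had 3 merged regions, of which 1 was donor Treg only and 2 were host Tconv only. The donor Treg only region (chrX:7582796-7584970) lay in the gene body, 4.21 kb from the nearer gene end, and held 1422 and 2175 peak bp in donor Treg and no peak in host Tconv. The other 8 libraries had peaks there too, of 391 and 431 bp in donor Tconv, 859 and 832 bp in iTreg, 1358 and 1287 bp in host pTreg and 1102 and 2113 bp in host tTreg. A peak at this region was therefore absent only from the 2 host Tconv libraries among the 12, and it was narrowest in donor Tconv. A region that overlapped both Foxp3 and its neighbour Ccdc22 (chrX:7592924-7596817), counted with Ccdc22 by its midpoint, was the widest donor Treg only region of all by mean width. It held 2698 and 3894 bp in donor Treg and no peak in host Tconv. In the other libraries it held 248 and 209 bp in donor Tconv, no peak in iTreg, 1326 and 1020 bp in host pTreg and 714 and 1679 bp in host tTreg. The 2 host Tconv only regions inside Foxp3 were small: chrX:7586435-7586869 had no peak in donor Treg and 357 and 435 bp in host Tconv, and chrX:7587485-7587871 had none in donor Treg and 247 and 387 bp in host Tconv. Neither had a peak in any of the 4 host pTreg and tTreg libraries, and both had peaks in both donor Tconv libraries.

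Il2ra, which encodes CD25, had 4 donor Treg only regions and no host Tconv only region among 11. The widest (chr2:11634994-11635945) held 879 and 789 bp in donor Treg and no peak in host Tconv, nor in donor Tconv. Lrrc32 had 3 and none among 6. Its region chr7:98491592-98493601 held 1874 and 2010 bp in donor Treg and no peak in host Tconv. It was also without a peak in donor Tconv and iTreg, and held 772 and 641 bp in host pTreg and 551 and 1892 bp in host tTreg. The iTreg cells, sorted for the same LAP on CD25+ cells, thus lacked a peak at that element, whereas at the Lrrc32 region next to it (chr7:98488277-98490746) each iTreg library held 2470 bp. Tgfb1, which encodes TGF-beta and LAP, had no donor Treg only region and 1 host Tconv only region among 3, with 150 and 207 bp in host Tconv, and none of its regions differed with lists of equal length.

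Ikzf2 encodes Helios, a transcription factor of stable regulatory T cells. It had 9 donor Treg only regions and 1 host Tconv only region among 23, and 19 and 21 of its regions had a peak in donor Treg, against 6 and 12 in host Tconv. Counts in the other libraries were 14 and 14 in donor Tconv, 7 and 7 in iTreg, 21 and 20 in host pTreg and 17 and 20 in host tTreg. The donor Treg counts lay among those of the host regulatory libraries and above those of all conventional and cultured libraries. Regions were built from the peaks of donor Treg and host Tconv only, and 9 were defined by donor Treg peaks, which favours donor Treg in this order. Swap70, an actin-binding exchange factor, had 5 and none among 12, with peaks at 12 and 11 regions in donor Treg and at 3 and 6 in host Tconv. Itgb8 had 4 and none among 8, with peaks at 7 and 8 regions in donor Treg and at 2 and 3 in host Tconv. Ikzf4, which encodes Eos, had 2 and none among 5, and Tigit had 2 and none among 9. Ctla4 had 2 and 1 among 13, Icos, a costimulatory receptor, 2 and 1 among 19, and Nrp1, a semaphorin co-receptor, 3 and 1 among 22. With lists of equal length these 3 gave 4 and 0, 5 and 1, and 6 and 1. Izumo1r had 1 and none among 9: its promoter region (chr9:14902969-14905053) held 2069 and 2073 bp in donor Treg and no peak in host Tconv. That region was uneven within other groups, at 0 and 1821 bp in donor Tconv and 2085 and 0 bp in host pTreg, so a wide peak was listed in 1 replicate and missing in the other. Going the other way, Tnfrsf9, Entpd1 and Nt5e each had 1 host Tconv only region and no donor Treg only region.

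**Figure D2:**
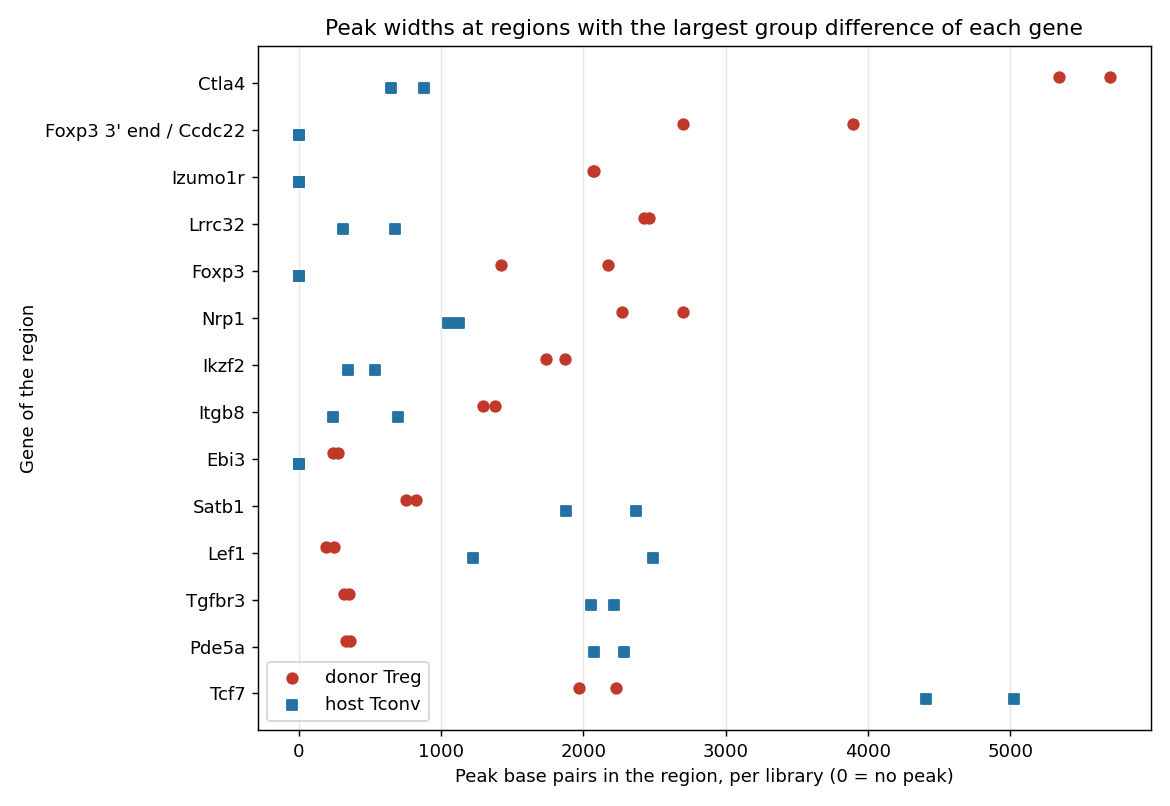
Peak base pairs (x axis) in each donor Treg library (circles) and host Tconv library (squares) at 14 regions, for each gene the region with the largest group difference; 0 means no peak. At Ctla4 the donor Treg libraries held 5341 and 5701 bp and the host Tconv libraries 647 and 880 bp, and at Tgfbr3 they held 318 and 352 bp against 2057 and 2216 bp.

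Of the effector and tissue genes, Rora, a nuclear receptor, had 6 donor Treg only and 3 host Tconv only regions among 31. Il1rl1, the receptor for interleukin-33, had 4 and 1 among 9, with peaks at 6 and 8 regions in donor Treg and at 2 and 3 in host Tconv. Klrg1, an inhibitory lectin-like receptor, had 3 and none among 9, and its region chr6:122293775-122294770 held 926 and 996 bp in donor Treg and no peak in host Tconv. Tnfrsf8, which encodes CD30, had 3 and none among 14. Itgae, the CD103 integrin chain, had 3 and none among 8. Areg, the growth factor amphiregulin, had 2 and none among 3, and Ebi3 had 1 and none among 1, with 242 and 279 bp in donor Treg and no peak in host Tconv. Prdm1, Il10 and Gzmb each had 1 and 1. Irf4 was the only gene of this list with more host Tconv only than donor Treg only regions, 1 against none, and with lists of equal length it had 1 donor Treg only region.

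The 16 genes of the naive and quiescent state showed the opposite balance, with 9 donor Treg only regions (3.46%) and 50 host Tconv only regions (19.2%) among 260. With lists of equal length these were 7 (3.27%) and 44 (20.6%) of 214. The count of host Tconv only regions was the larger at 11 genes. The net count was -41, but -64 under the looser rule with host Tconv replicate 1 left out. It was -5 when regions were assigned by gene ends alone, up to 10 kb away. Foxp1 had 4 donor Treg only and 20 host Tconv only regions among 70, with a peak at 37 and 37 regions in donor Treg and at 54 and 62 in host Tconv. Bach2, a repressor that holds back effector programmes, had 2 and 9 among 42. Lef1, a partner of beta-catenin in T cells, had none and 4 among 16, Satb1, a chromatin organizer, none and 4 among 17, and Foxo1 and the kinase gene Txk none and 3 each. Tcf7, which encodes TCF-1, had 1 and 1, and Ccr7 and S1pr1, which guide T cell traffic, had 1 and none each. The widest of these Lef1 regions (chr3:131190350-131191840) held no peak in donor Treg and 1223 and 1491 bp in host Tconv. It was open in donor Tconv as well, at 1459 and 1319 bp, and had no peak in any host pTreg or tTreg library.

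The 2 printed starts of Foxp1 lay in regions of opposite class. The inner start lay in a donor Treg only region (chr6:99027931-99029053) with 1123 and 1002 bp in donor Treg and no peak in host Tconv or donor Tconv. Both iTreg libraries held 1123 bp there, host pTreg 1122 and 0 bp and host tTreg 913 and 1013 bp. The other start lay in a host Tconv only region (chr6:99265240-99266741) with no peak in donor Treg and 938 and 1502 bp in host Tconv. It held 1484 and 1430 bp in donor Tconv and 1496 and 1502 bp in iTreg, and no peak in the 4 host pTreg and tTreg libraries. The iTreg libraries thus had peaks at both starts.

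Of the 16 genes of TGF-beta presentation and signalling, 4 had more donor Treg only regions, 5 had more host Tconv only regions and 7 had equal counts. The first were Itgb8 with 4 and none, Lrrc32 and Itgae with 3 and none each, and the signal transducer Smad3 with 2 and 1. Of the other genes that make, process or bind the ligand, Tgfb1 had none and 1, and Itgav, Furin and Ltbp1 had none of either class. Among the receptors and their signalling, Tgfbr3, the co-receptor betaglycan, had none and 10 host Tconv only regions among 24, the inhibitor Smad7 none and 2 among 10, Smad4 none and 2 among 8, and Tgfbr2 2 and 2 among 26. The list as a whole had 15 (10.1%) and 20 (13.4%) of 149 regions, and 18 and 18 of 125 (14.4% each) with lists of equal length. Regions at all genes gave 3.94% and 12.6%, and 7.8% and 8.58% with lists of equal length. For the 15 genes of interleukin-2 signalling the counts were 9 (7.56%) and 14 (11.8%) of 119. Of the 9, 4 were at Il2ra. Bcl2, a survival factor, had 1 and 5 among 32 and Il2 itself none and 2 among 5. The balance of this list turned with lists of equal length, where it had 13 (12.3%) and 9 (8.49%) of 106 regions.

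Histone deacetylases and corepressors had 14 (13.7%) and 16 (15.7%) of 102 regions, and 11 and 9 with lists of equal length, where the balance turned. With all peaks, 11 of the 14 were at Hdac9, a class IIa deacetylase. Hdac9 had 14 regions in all, none of them host Tconv only, with a peak at 12 and 12 in donor Treg and at 0 and 2 in host Tconv. Counts in the other libraries were 9 and 5 in donor Tconv, 3 and 3 in iTreg, 5 and 2 in host pTreg and 4 and 9 in host tTreg. The donor Treg counts were above those of all other libraries, and donor Tconv replicate 1 came next together with host tTreg replicate 2. The choice of regions favours this order, since 11 of the 14 were defined by a peak in both donor Treg libraries. Regions were built from the 4 compared libraries only, so another library could add none of its own. Its widest region (chr12:34432601-34433273) held 669 and 654 bp in donor Treg and no peak in host Tconv. It held 150 and 0 bp in donor Tconv, 342 and 534 bp in iTreg and no peak in the host pTreg and tTreg libraries. Hdac4 had none and 3 among 24 and Hdac7 none and 2 among 8.

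Transcription factors that work with Foxp3 had 9 and 26 of 205 regions, 4.39% and 12.7%, close to the shares over all regions. Runx1 had none and 5 among 25, and Rel, an NF-kB subunit, 2 and none among 7. Activation genes downstream of the T cell receptor had 7 (6.54%) and 9 (8.41%) of 107 regions, with Cd44, an adhesion receptor of antigen-experienced cells, at 2 and none. Genes of anergy and exhaustion had 10 (7.46%) and 7 (5.22%) of 134, among them Tox, a chromatin-binding factor, with 4 and 3. Helper lineage genes had 4 (4.12%) and 21 (21.6%) of 97. Of the 21, 10 were at Zbtb16, the gene of PLZF, and 5 at Il21, a helper cytokine. All 10 Zbtb16 regions were narrow, none wider than 387 bp in either host Tconv library, and none was host Tconv only with lists of equal length. The balance of the helper list then turned, with 11 donor Treg only and 3 host Tconv only regions of 57. Homing genes had 7 (7.07%) and 11 (11.1%) of 99. With lists of equal length the balance also turned for the activation genes, at 10 and 6, the homing genes, at 10 and 4, and the CD8 T cell genes, at 3 and 1. Pan-T and CD4 genes, markers of both sorts, gave 6 (3.64%) and 22 (13.3%) of 165, close to the 3.94% and 12.6% at all genes. Markers of other cell types gave 1 (3.12%) and 6 (18.8%) of 32 for CD8 T cells and 2 (10%) and 3 (15%) of 20 for NK cells. B cell markers gave 1 (8.33%) and none of 12, and plasma cell markers 1 (4%) and 2 (8%) of 25. Myeloid markers gave 1 (3.23%) and 8 (25.8%) of 31, the largest host Tconv only share of these lists. Erythroid markers gave 2 (13.3%) and 1 (6.67%) of 15, and markers of stem cells and progenitors 3 and 3 (15% each) of 20. The part of other cell types in the results was not tested.

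Across all genes, 45272 regions lay in or within 50 kb of a protein-coding gene, and donor Treg only regions outnumbered host Tconv only regions at 909 of 13908 genes, the reverse at 3226. Among genes that kept their direction with lists of equal length, the first 10 by net count in favour of donor Treg were Hdac9, Ikzf2, Atxn1, Lamc1, Rad51b, Emsy, Cwc27, Sh3rf1, Ceacam15 and Thsd7b. Lamc1, a laminin chain, had 7 and none among 14, with peaks at 11 and 13 regions in donor Treg and at 2 and 3 in host Tconv. Its counts were 5 and 4 in donor Tconv, 12 and 11 in host pTreg and 10 and 12 in host tTreg. Rad51b, a recombination factor, had 10 and 3 among 37. Ceacam15 had 5 and none among 6, with peaks at 6 and 5 regions in donor Treg and at none in either host Tconv library. In the other direction, under the same condition, which Zbtb16 did not meet, stood Foxp1, Cox10, Zfp704, Khdrbs3, Mbnl2, Tgfbr3, Myo10, Snx29, Thada and Arid1b. Cox10, a cytochrome oxidase assembly factor, had none and 12 among 23, and Khdrbs3, an RNA-binding protein gene, none and 10 among 17, with a peak at 1 and 1 regions in donor Treg and at 12 and 15 in host Tconv. Khdrbs3 counts were 13 and 14 in donor Tconv and 1, 0, 0 and 0 in the host pTreg and tTreg libraries.

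**Figure D3:**
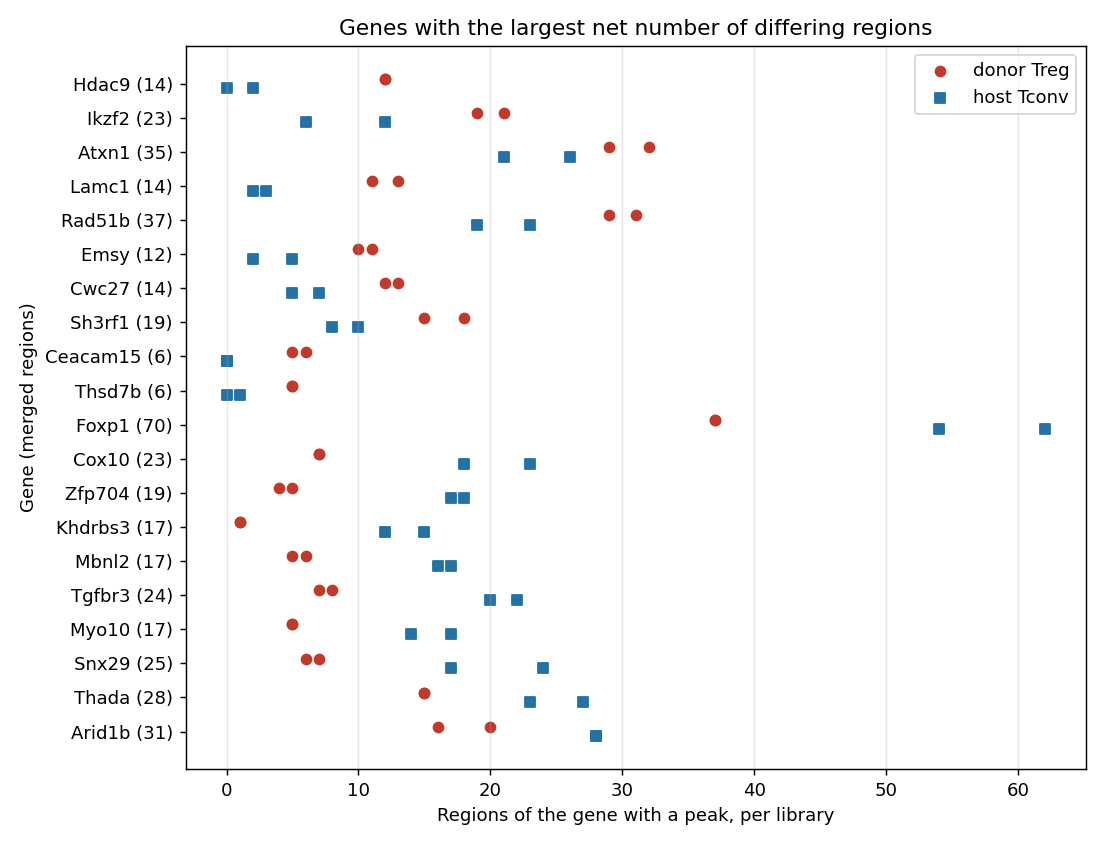
Number of regions with a peak (x axis) in each donor Treg library (circles) and host Tconv library (squares) for the 10 genes leading in net donor Treg only regions (upper rows) and the 10 leading in net host Tconv only regions (lower rows), among genes that kept their direction with lists of equal length; the number of merged regions is in brackets. The 20 genes were chosen by these same regions, so the distance between the 2 groups is largely set by that choice and is not a separate result. At Hdac9 the donor Treg libraries had 12 and 12 regions with a peak and the host Tconv libraries 0 and 2.

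The congenic segment was looked at because donor and host carry different forms of Ptprc on chromosome 1. Within 20 Mb of Ptprc, 72 of 851 regions (8.46%) were donor Treg only and 105 (12.3%) host Tconv only, beside 4.24% and 12.8% over all merged regions. Of the 72, 25 had a peak in both donor Tconv libraries, which share the donor form, beside 515 of all 2096 donor Treg only regions. Lamc1, Thsd7b and Il10 lie within this distance, at 15.0, 7.84 and 7.04 Mb, and the part of the congenic segment in their values was not tested. Chromosome X had 41 donor Treg only (3.57%) and 111 host Tconv only regions (9.68%) of 1147.

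By position, differing regions lay away from gene ends. The share within 1 kb of a gene end was 6.25% of donor Treg only and 5.37% of host Tconv only regions, and 35.3% of regions shared by all 4 libraries. It was 7.65% of the regions with a mixed pattern, so this position was not particular to the differing regions. In a gene body lay 54.5% of donor Treg only and 63.4% of host Tconv only regions, and 14.9% and 10.0% lay outside genes and more than 50 kb from any gene end. Their peaks were narrow, with medians of 294 and 322 bp, and the median was 698 bp in shared regions and 237 bp in regions with a mixed pattern. Recovery in the replicate varied with peak width: of peaks of 150 to 249 bp, 74.7% and 53.7% had an overlapping peak in the replicate in donor Treg, and 90.5% and 24.1% in host Tconv, while of peaks from 1000 bp up between 99.4% and 99.9% did. By mean width, the 5 widest donor Treg only regions were the one over Foxp3 and Ccdc22, those described above at Izumo1r and Lrrc32, one at Vps37b and the one inside Foxp3. At Vps37b, an ESCRT subunit gene, chr5:124030326-124032625 held 1489 and 2300 bp in donor Treg and no peak in host Tconv, donor Tconv or iTreg. The 5 widest host Tconv only regions were at Sfi1, Abcb9, Timm8a2 and Kdm2b and at a site with no gene within 50 kb (chr10:96373087-96375169). At Sfi1 (chr11:3140427-3148919) donor Treg had no peak and host Tconv 8493 and 8465 bp; Sfi1 lies in a repeated stretch of the mouse genome, so this value is uncertain. At Kdm2b, a histone demethylase gene, the other replicates disagreed, with 0 and 2138 bp in donor Tconv and 2139 and 423 bp in host pTreg.

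Peak width gave a second measure at the 25957 regions that the presence rule did not use. The summed peak bp of each library were put on the log2 scale, quantile normalized and tested with limma, with Benjamini-Hochberg adjusted p under 0.05 as the threshold. Of these regions 347 (1.34%) were wider and 483 (1.86%) narrower in donor Treg, around a median log2 difference of 0.03 over all. Wider regions had median widths of 768 bp in donor Treg and 351.5 bp in host Tconv, and narrower regions 345.5 bp and 1020.5 bp. The calls did not hold without host Tconv replicate 1 or without host Tconv replicate 2. All 830 regions kept their direction there. They were chosen by the difference between these same 4 libraries, so the kept direction is largely set by that choice and is not a separate result. Without donor Treg replicate 1, 206 were wider, and without normalization 2 were wider and 7 narrower. Since no peak is narrower than 150 bp, a region that is narrow in 1 group has a bounded difference.

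At the regulatory genes, only wider regions passed the test. Of 81 shared regions at the 20 regulatory T cell genes, 18 (22.2%) were wider in donor Treg and none was narrower, with a median log2 difference of 0.49. The count ranged from 11 to 24 in the alternatives that kept both host Tconv libraries and normalized widths, and was 1 without normalization and 0 without either host Tconv replicate, where the medians were 0.27, 0.48 and 0.54. At the effector genes 5 of 68 were wider and none narrower, with a median of 0.25. At the naive genes 17 of 128 (13.3%) were narrower and 1 was wider, with a median of -0.28. In the TGF-beta list 10 of 72 were narrower and 2 wider. In the interleukin-2 list 3 of 72 were wider and 2 narrower, and no other list had more than 3 in either direction.

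The smallest p of the fit was at Ctla4 (chr1:60908531-60914231), whose region covers the promoter printed above. It held 5341 and 5701 bp in donor Treg and 647 and 880 bp in host Tconv, a log2 difference of 3.15 (SE 0.108, limma adjusted p = 0.000891). The region held 1317 and 823 bp in donor Tconv, 1422 and 2156 bp in iTreg, 5275 and 1580 bp in host pTreg and 3875 and 5351 bp in host tTreg. Outside donor Treg, the 3 largest widths were all in host pTreg and tTreg libraries. Those cells were sorted as CTLA4+, so their widths at Ctla4 describe that sort as well as the cells. Lrrc32 (chr7:98488277-98490746) held 2424 and 2461 bp in donor Treg and 315 and 674 bp in host Tconv, a difference of 2.61 (SE 0.207, limma adjusted p = 0.00826). Ikzf2 (chr1:69543999-69545872) held 1739 and 1874 bp in donor Treg and 349 and 539 bp in host Tconv, a difference of 2.25 (SE 0.134, limma adjusted p = 0.00525). It held 492 and 510 bp in donor Tconv, 438 and 497 bp in iTreg, 1693 and 641 bp in host pTreg and 708 and 1726 bp in host tTreg, so that 1 library of each host regulatory pair was near donor Treg and the other nearer host Tconv. A second Ikzf2 region (chr1:69679538-69681453) was wider by 2.10 (SE 0.289, limma adjusted p = 0.0203). Itgb8 at its promoter held 1297 and 1381 bp in donor Treg and 244 and 698 bp in host Tconv, a difference of 1.88 (SE 0.314, limma adjusted p = 0.0331).

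**Figure D4:**
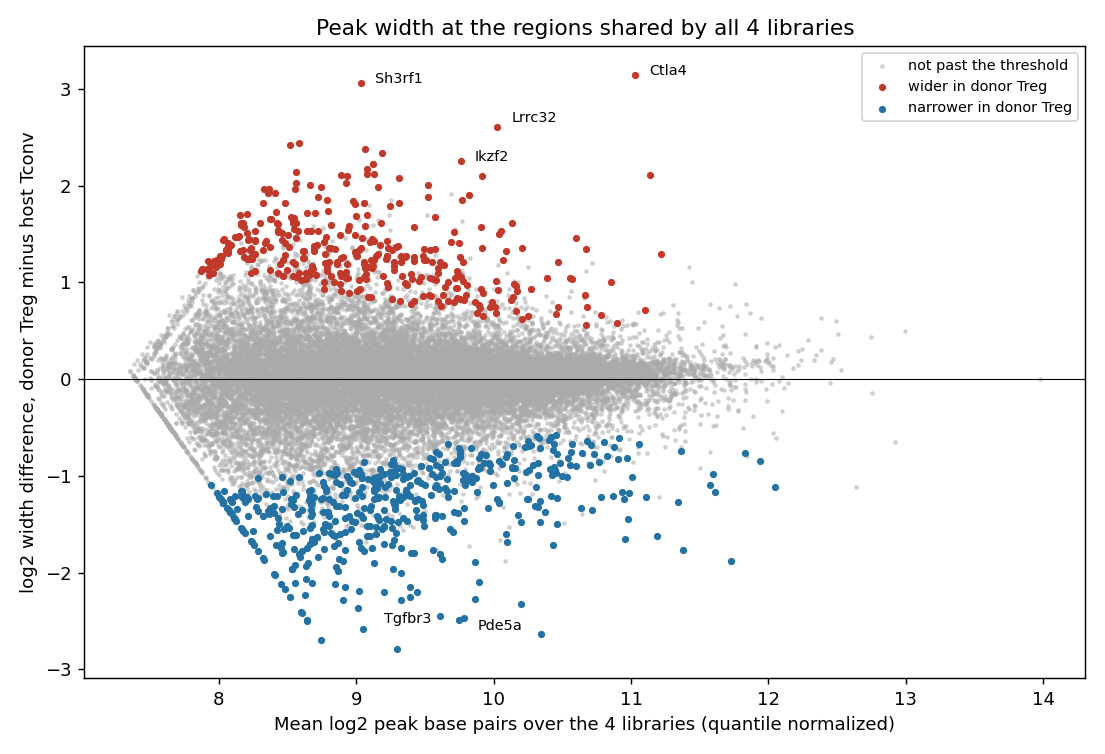
Log2 width difference, donor Treg minus host Tconv (y axis), against mean log2 peak base pairs over the 4 libraries after quantile normalization (x axis) for 25957 shared regions; coloured points passed the limma threshold. The 347 wider regions (red) reached 3.15 at Ctla4 and the 483 narrower regions (blue) include Tgfbr3 and Pde5a.

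Further wider regions were 3 at Nrp1, 3 at Ctla4 in all, 3 at Il10, 2 at Icos and 1 each at Tigit, Tnfrsf4, Ikzf4, Gpr83, Socs2, Swap70, Klrg1, Rora, Tox, Il2rb, Bcl2, Bach2 and Ifng. The Tigit promoter region held 1382 and 1429 bp in donor Treg and 852 and 954 bp in host Tconv, a log2 difference of 0.81, but donor Tconv held 1411 and 1379 bp and iTreg 354 and 681 bp. Zswim4 (chr8:84200156-84204416) was wider, 8.66 kb outside the gene, by 2.11 (SE 0.116, limma adjusted p = 0.00517). Its host Tconv widths of 1079 and 1218 bp were below those of the other 10 libraries, which lay between 3739 and 4261 bp. Sh3rf1, a scaffold of the JNK pathway, was wider by 3.06, with 1417 and 1466 bp in donor Treg and 150 and 277 bp in host Tconv, and with 1044 and 959 bp in donor Tconv and no peak in iTreg. Regions at or near Nek6, Stk24, Spcs2 and Arhgap15 and 1 with no gene within 50 kb complete the 10 wider regions with the smallest p, with differences between 1.85 and 2.44.

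Narrower regions were led by Tgfbr3 (chr5:107078334-107080549), with 318 and 352 bp in donor Treg and 2057 and 2216 bp in host Tconv, a log2 difference of -2.49 (SE 0.138, limma adjusted p = 0.00517). It lies 27.1 kb outside the gene. Its widths were 2205 and 2152 bp in donor Tconv and 1619 and 1801 bp in iTreg, and between 188 and 364 bp in the host pTreg and tTreg libraries. Pde5a, a cyclic GMP phosphodiesterase gene, held 361 and 330 bp in donor Treg and 2072 and 2284 bp in host Tconv (difference -2.47). At both regions donor Tconv widths lay near those of host Tconv. Regions at or near Dip2b, Wwox, Rab34, Pkp4 and Phldb1 were also among the 10 narrower regions with the smallest p, with differences between -2.49 and -1.50. Lef1 had 3 narrower regions, of which chr3:131124531-131127022 held 189 and 249 bp in donor Treg and 1228 and 2492 bp in host Tconv (-2.80, SE 0.261, limma adjusted p = 0.0112). Tcf7 had 3, Satb1, Ccr7 and Tgfbr2 had 2, 2 and 3, and Tgfbr3 had 4 in all. Smad7 and Nfatc1 had 2 each, and Il2, Jak1, Ski, Foxp1, S1pr1, Dapl1, Igfbp4, Runx1, Cd44, Eomes and Klrk1 had 1 each. The Tcf7 region with the largest difference in bp (chr11:52264874-52269903) held 1971 and 2231 bp in donor Treg and 4409 and 5030 bp in host Tconv. Bach2 had 2 narrower regions and 1 wider, so its elements did not all move in 1 direction.

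The 2 measures were set side by side by gene. Of 13908 genes with a region, 1332 had a donor Treg only region and 3525 a host Tconv only region. Of the 1332 and of 272 genes with a wider shared region, 119 had both, 8.93% of the first and 43.8% of the second. Of the 3525 and of 407 genes with a narrower one, 248 had both, 7.04% and 60.9%. The crossed pairs were 77 genes with a donor Treg only and a narrower region (5.78% and 18.9%) and 94 with a host Tconv only and a wider region (2.67% and 34.6%). The number of regions per gene was not taken into account, and these overlaps have no test.

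The 8 other libraries, which the rule did not use, were read at the differing regions. Host Tconv only regions had a peak in 93.9% and 89.4% of cases in the donor Tconv libraries. They had one in 24.6% and 10.9% of cases in host pTreg and in 3.38% and 12.5% in host tTreg. Donor Treg only regions had a peak in 82.5% and 72.3% of cases in host pTreg and 64.5% and 86.9% in host tTreg, and in 38.2% and 31.2% in donor Tconv. Over all merged regions the shares were 70.6% and 61.7% in host pTreg, 54.1% and 65.8% in host tTreg and 87.5% and 83.9% in donor Tconv. In all, 515 donor Treg only regions (24.6%) had a peak in both donor Tconv libraries. The host pTreg and tTreg libraries carry another run code and low numbers in their names, as donor Treg does, so sort, run and that number cannot be told apart.

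**Figure D5:**
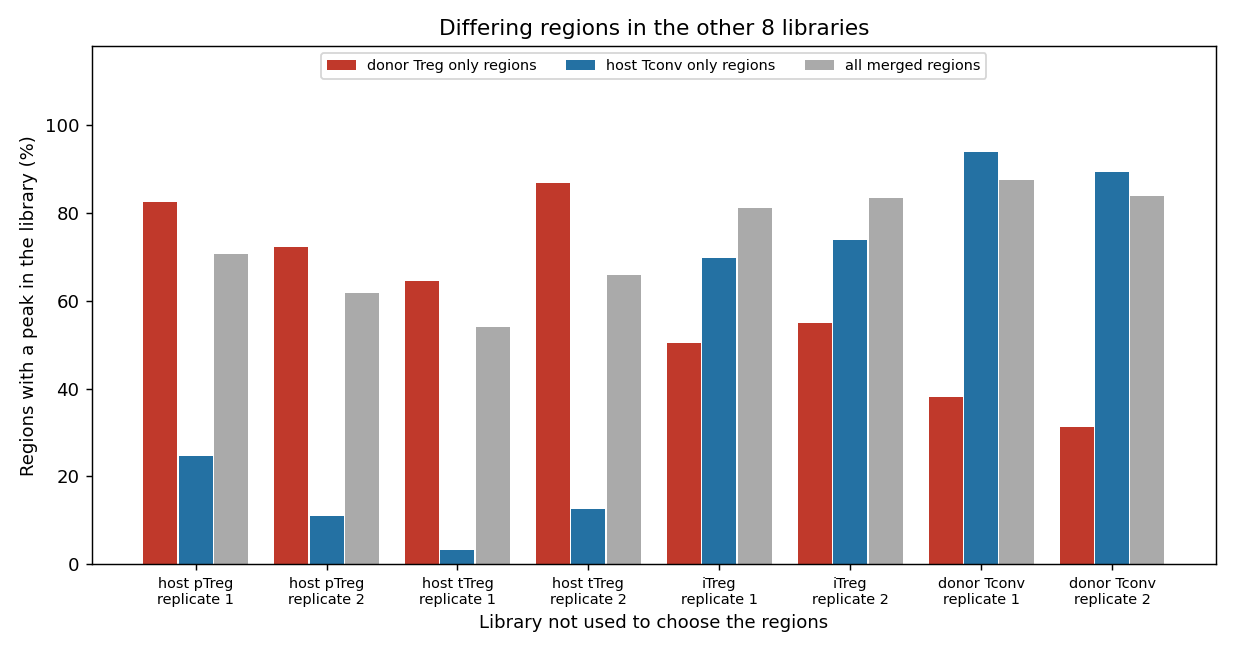
Share of donor Treg only regions (red), host Tconv only regions (blue) and all merged regions (grey) with a peak (y axis, %) in each of the 8 libraries that the rule did not use (x axis). Host Tconv only regions had a peak most often in donor Tconv (93.9% and 89.4%) and least often in host tTreg replicate 1 (3.38%).

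In the iTreg libraries 50.4% and 54.9% of donor Treg only regions and 69.8% and 73.9% of host Tconv only regions had a peak, beside 81.0% and 83.3% of all merged regions. The iTreg shares of donor Treg only regions were below those of all 4 host pTreg and tTreg libraries, and those of host Tconv only regions were above them. In 607 donor Treg only regions (29.0%) all 4 host regulatory libraries and neither donor Tconv library had a peak, and 278 of them also had one in both iTreg libraries. Only 48 donor Treg only regions (2.29%) and 113 host Tconv only regions (1.79%) had no peak in any of the 8 libraries.

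Widths in the same 8 libraries were set beside the calls. At the 483 narrower regions, the width was nearer to the mean of donor Treg than to that of host Tconv in 2.69% and 5.8% of regions in donor Tconv, in 27.3% and 21.3% in iTreg, in 71.2% and 93.6% in host pTreg and in 98.8% and 90.7% in host tTreg. A region without a peak was counted as 1 bp on the log2 scale used for this, and so as nearer to donor Treg here, which applied in host pTreg to 39 and 120 of the 483, in host tTreg to 206 and 121, in iTreg to 30 and 21 and in donor Tconv to 3 and 2. At the 347 wider regions it was nearer to donor Treg in 65.4% and 49.3% of regions in donor Tconv, 55.6% and 60.2% in iTreg, 89.3% and 75.8% in host pTreg and 62.2% and 90.5% in host tTreg. At these wider regions a missing peak counted as nearer to host Tconv. This applied to 54 and 45 of the 347 in iTreg and to 0 and 7 in donor Tconv. It applied to 4 and 8 in host pTreg and to 12 and 6 in host tTreg. Wider regions were thus divided in donor Tconv, whereas narrower regions were almost all near host Tconv there. The widths set beside the calls were not normalized, unlike those of the calls. Peaks covered 33.22 and 30.2 Mb in donor Tconv, 21.73 and 23.18 Mb in donor Treg and 23.43 and 32.95 Mb in host Tconv. The part of this in the contrast was not tested. The libraries differ in list length, from 28394 peaks in host tTreg replicate 1 to 63207 in iTreg replicate 2, and these shares have no test.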

How the data were processed

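The submitters' processing notes name bedtools, HOMER 4.10, Bowtie2 2.3.3 and mm10. Their roles and settings, and whether cut positions were shifted, are not given in the sources used. Each list deposited by the authors gives coordinates, a name and a score, which is 1000 for every peak and was not used. Peak coordinates, as deposited, were the measurement. Reads and depth behind a list are unknown, so no interval is given and a missing peak does not show closed chromatin.

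Merging, classes and counts were computed in Python 3.11.15. Regions went to the protein-coding gene holding their midpoint, else to the nearest gene end within 50 kb (RefSeq, GRCm38.p6); all 236 genes of the 19 lists matched. Widths were fitted with limma 3.58.1 in R 4.3.3 (lmFit, eBayes with trend), tested on simulated data. In other libraries, only peak bp inside a region were counted.

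Named genes were, per list, up to 6 with the largest net count in each direction, the sort genes, the 10 leading genes per direction that kept it with equal lengths, the 5 widest regions per class and the 10 smallest p per direction. Some genes that this rule names are not reported here. Other list genes were named after their values were seen. The comparison, lists and alternatives were chosen with earlier results of these data known. Alternatives are given at the end; those combining equal lengths with another choice, and the list medians of the width fit under each setting, were added after seeing the data.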

Additional observations from a re-analysis of the deposited data

How the results depend on the processing

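The replicate numbers pair nothing in the labels, and deviations of same-numbered libraries correlated at 0.0423 over 25957 regions; with a replicate block, 603 shared regions were wider and 876 narrower. Without normalization 2 were wider and 7 narrower, and with median centring 735 were narrower. Leaving out 1 library gave 0 to 240 wider and 0 to 535 narrower regions; calls ended without either host Tconv library (5843 and 4593 regions at unadjusted p under 0.05), and all 830 called regions kept their direction in each setting that gave a value. Peaks of at least 300 bp gave 1349 donor Treg only and 4175 host Tconv only regions, and 1900 and 3597 when applied to the equal-length lists. Equal length alone gave 3027 donor Treg only and 3142 host Tconv only regions. Leaving out 1 library gave 2256 to 3709 donor Treg only and 7153 to 13052 host Tconv only regions, and 3839 to 4274 and 3694 to 4874 at equal length. These counts rise by design, since the group of the left-out library then needs a peak, or none, in only 1 library. Net counts per list with 1 library left out rest on the same looser rule. Merging within 500 bp, requiring overlap of a larger share, leaving out chromosomes X and Y or 1, and merging all 12 libraries kept both counts within 1.5 times. The net count per list (donor Treg only minus host Tconv only) changed sign at equal length for interleukin-2 (4), deacetylase (2), receptor activation (4), helper (8), homing (6) and CD8 (2) genes. With 1 library left out, the deacetylase list ranged from -13 to 1, the plasma cell list from -3 to 1 and the anergy list from -10 to 12; the low ends came without host Tconv replicate 1. The causes were not tested. The regulatory, effector and naive lists kept their direction under every alternative run. Unknown depth limits all counts of missing peaks.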
